A study of Mus musculus with 17 samples.

Results

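The probe sets described here are the rows of a mouse expression array whose values separated CD23-negative from CD23-positive spleen B cells. They were chosen on the values themselves: a row was taken if its mean log2 value in the 5 arrays of B220+CD23-IgM+ cells lay at least 1 log2 unit (2-fold) above or below its mean in the 6 arrays of B220+CD23+ cells. Of 33327 rows with a value in every array, 199 passed this threshold. Rows were then left out if their mean in IgM+CD138+ cells differed from the mean of the other 11 arrays by 2 log2 units or more (27 rows), or if they lay in 3 short stretches of the list that the rule bars (4 rows, 3 of them also left out by level). This left 171 probe sets, 0.513% of the valued rows. In B220+CD23-IgM+ cells 142 of them were higher, here called the higher members, and 29 were lower, the lower members. Since the difference between these populations chose the members, it is given as a description, with no test.

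CD23 is the low-affinity receptor for IgE, carried by follicular B cells, the recirculating majority of mature B cells in the mouse spleen. The B220+ cells that lack CD23 and bear IgM on their surface are a mixed gate that can hold marginal zone, newly formed and B-1 type B cells. CD138, or syndecan-1, is a surface proteoglycan of cells that secrete antibody. Myb is a transcription factor that developing blood cells and early B-lineage cells depend on.

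The arrays measured RNA of cells sorted from the spleens of atherosclerosis-prone mice that lack the LDL receptor and had eaten a high-cholesterol diet for 12 weeks. Control mice carry the genotype label LDL-R KO Mouse. The mice compared with them are labelled c-myb h/h on that same LDL-R KO background, which the series title calls a myb deficiency, so both genotypes lack the LDL receptor and both had the diet. Each genotype gave IgM+CD138+, B220+CD23+ and B220+CD23-IgM+ cells, with 3 arrays per group except 2 for control B220+CD23-IgM+ cells, 17 arrays in all. Below, CD23-positive stands for the B220+CD23+ and CD23-negative for the B220+CD23-IgM+ cells. The age of the mice and the cells in which the c-myb h/h change acts are not given in the sources used here. The design text speaks of separate mice. Arrays of different populations with the same genotype and number were read as the same mouse, which the labels do not state. The sorted samples are bulk RNA of many cells, so a lower share of cells that express a gene and less of its RNA per cell cannot be told apart.

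No gene names are given, because the listed probe IDs are displaced against the values. Fcer2a encodes CD23, and its paired probe set stood at 6.41 ± 0.14 (SD, n = 6) in CD23-positive and 6.54 ± 0.06 (SD, n = 5) in CD23-negative cells, levels that do not follow the sort. The probe set paired with Cr2, the gene of CD21, a complement receptor of B cells, read 3.31 ± 0.30 and 3.35 ± 0.22 in that order (SD, same n). That paired with Ms4a1, the gene of CD20, a B-cell surface protein, read 5.48 ± 0.13 and 5.36 ± 0.14. Of the probe sets that carry Myb's name, the brighter one ranged from 4.65 to 5.70 over the 17 arrays. Ptprc encodes B220, and its probe set stood at 8.09 ± 0.13 in CD23-positive, 8.02 ± 0.09 in CD23-negative and 7.98 ± 0.14 (SD, n = 6) in IgM+CD138+ cells. The brighter one paired with Sdc1, the gene of CD138, read 8.17 ± 0.22, 8.29 ± 0.45 and 8.17 ± 0.19 in that order. Of 7 paired with Ighm, the heavy chain of IgM, the brightest read 6.93 ± 0.52, 6.88 ± 0.67 and 11.04 ± 1.0, and so did separate IgM+CD138+ cells from the others. None of these is a member. Names thus did not show the CD23 and CD138 gates, and members are named by their row in the listed order. For 4 of them the listed ID is given too, which may belong to another probe. Medians of whole arrays ranged from 5.13 to 5.21 log2.

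Higher members were more frequent than lower members, with extremes of 2.97 and -2.85 log2. The median difference (CD23-negative minus CD23-positive) was 1.24 log2 among the 142 higher members, and 41 of them reached 1.5 log2 and 12 reached 2. Among the 29 lower members it was -1.11, with 5 reaching 1.5 and 3 reaching 2 in size. Over all valued rows the median was -0.03. At the threshold, rows 13544 and 25850 were just inside at 1.002 and 1.004, and rows 21841 and 25512 just outside at 0.9996 and 0.9992. In the other direction rows 16838 and 35425 were just inside at -1.003 and -1.006, and rows 25080 and 13612 just outside at -0.993 and -0.986.

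**Figure D1:**
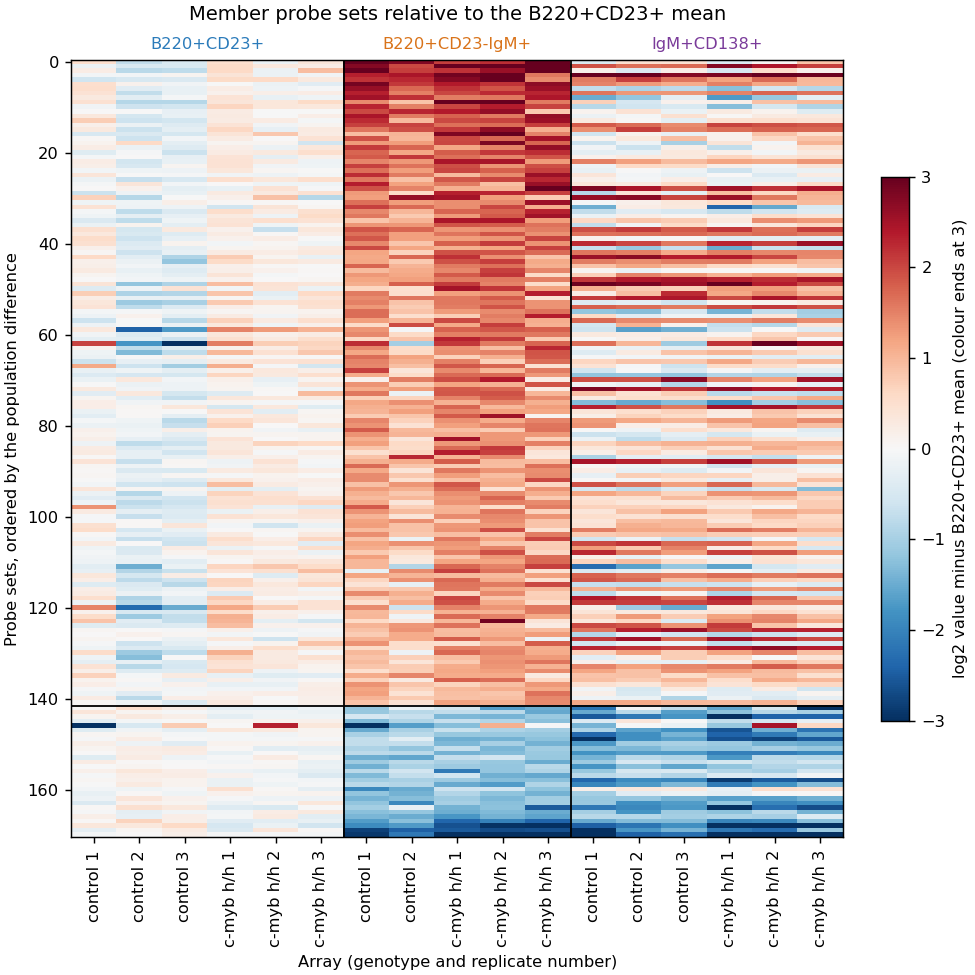
Log2 values of the 171 member probe sets (rows, ordered by the population difference) in the 17 arrays (columns, by population, genotype and replicate), each minus the mean of the 6 CD23-positive arrays, with the colour scale ending at 3. The horizontal line parts the 142 higher from the 29 lower members, and IgM+CD138+ arrays are red, pale or blue among the higher members but mostly blue among the lower.

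The median over the members, taken array by array, kept the populations apart. For the higher members it was 5.91, 5.40 and 5.50 in control CD23-positive replicates 1, 2 and 3, and 6.19, 5.96 and 6.04 in the c-myb h/h replicates. In CD23-negative cells it was 7.24 and 6.93 in control replicates 1 and 2, and 7.53, 7.49 and 7.41 in the c-myb h/h replicates. In IgM+CD138+ cells it stayed between 6.49 and 6.64 in all 6 arrays, above each CD23-positive and below each CD23-negative array. For the lower members the CD23-positive arrays lay between 7.81 and 8.36, and the CD23-negative arrays between 6.47 and 6.70. IgM+CD138+ arrays lay between 6.42 and 7.02 there and overlapped the CD23-negative arrays.

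**Figure D2:**
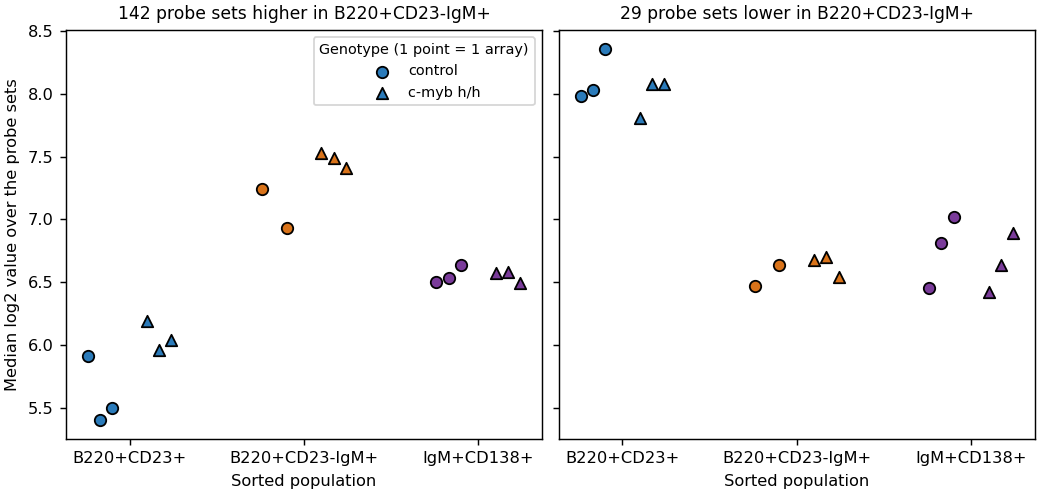
Median log2 value over the 142 higher members (left) and the 29 lower members (right) in each array, 1 point per array, circles for control and triangles for c-myb h/h mice. For the higher members the IgM+CD138+ arrays sit between 6.49 and 6.64, between the other populations, and for the lower members they sit with the CD23-negative arrays.

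Most members separated the arrays of the populations completely. In 102 of the 142 higher members each CD23-negative array lay above each CD23-positive array, as it did in 2.11% of all valued rows, and in 26 of the 29 lower members each lay below, as in 1.76% of all rows. The remaining 40 and 3 members had overlapping arrays. Within the pairs of arrays of the same genotype and number, 136 of the 142 higher members were higher in the CD23-negative array of all 5 pairs. Of all 33327 rows, 2587 were. All 29 lower members were lower in all 5, as were 2862 of all rows. The median difference in a pair ran from 1.19 to 1.40 for the higher members and from -1.26 to -1.05 for the lower. The members were chosen on these same arrays, so more separation than over all rows follows from the choice.

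Within control arrays the difference reached 1 log2 for 114 higher members, within c-myb h/h arrays for 108, and in both for 82. For the lower members the counts were 20, 22 and 14. The rule used these arrays, so the counts only describe the members.

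The members were brighter and more variable than the array as a whole. They were chosen on these same values by a threshold on means with no term for the spread, so this only describes them. The median higher member stood at the 72nd percentile of all valued rows by its mean over the arrays, and the median lower member at the 80th. In 31 higher members the CD23-positive mean lay below and the CD23-negative mean above the median row (5.17), in 105 both lay above it and in 6 both lay below. In 28 of the 29 lower members both means lay above it. The standard deviation within groups had a median of 0.366 log2 in the higher and 0.282 in the lower members, against 0.198 over all rows, and it was above 0.198 in 135 of the 142 and 24 of the 29.

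The 10 higher members with the largest differences among those with separate arrays ranged from 2.05 to 2.97 log2, 4.13-fold to 7.81-fold. Row 30891 (listed ID 17463106) read 3.64 to 4.89 (median 4.46) in the 6 CD23-positive arrays. In CD23-negative cells it read 8.33 and 7.16 in control and 6.46, 6.59 and 8.16 in c-myb h/h mice. It was thus dim in every CD23-positive array and brighter in each CD23-negative array, with a wide spread among the latter. In IgM+CD138+ cells it read 3.95 to 5.24 (median 4.62), which overlapped the CD23-positive range only.

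Row 5741 (listed ID 17213548) read 5.09 to 6.12 (median 5.57) in CD23-positive cells. It read 8.31 and 7.53 in control and 8.69, 8.98 and 8.78 in c-myb h/h CD23-negative cells. In IgM+CD138+ cells it was also high, at 7.20 to 8.30 (median 7.54). The c-myb h/h arrays lay above the control arrays in each population, by 0.74, 0.90 and 0.67 log2 in CD23-positive, CD23-negative and IgM+CD138+ cells, with limma adjusted p of 0.429, 0.255 and 0.249, none past the threshold. Row 25411 read 5.46 to 7.20 in CD23-positive and 8.35 to 9.67 in CD23-negative cells, and in IgM+CD138+ cells it lay in the lower range, at 5.78 to 6.78.

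Among the others of these 10, IgM+CD138+ cells took several places. Row 31668 read 4.33 to 4.90 in CD23-positive, 6.09 to 7.53 in CD23-negative and 7.27 to 7.79 in IgM+CD138+ cells, so both other populations were bright against a dim CD23-positive population. Row 31398 read 5.30 to 6.13, 7.76 to 8.50 and 6.60 to 7.14 in that order, and was the only higher member whose IgM+CD138+ arrays lay between the other populations without touching either. Row 25684 read 6.34 to 7.20, 8.39 to 9.29 and 5.42 to 6.13, with IgM+CD138+ cells below both. Row 33998 read 5.47 to 6.20, 7.33 to 8.30 and 4.10 to 5.52. Rows 17025 and 34897 were high in IgM+CD138+ cells as well, at 6.78 to 7.83 and 6.95 to 7.39. Row 32790 had the widest CD23-negative range of the 10, from 6.62 to 9.01, with 8.89 and 9.01 in c-myb h/h replicates 1 and 2 and 7.30 in replicate 3.

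The 10 lower members with the largest differences ranged from -2.85 to -1.17 log2. Row 35255 (listed ID 17503389) was the brightest of them in CD23-positive cells, where its 6 arrays lay between 10.68 and 10.91. In CD23-negative cells it read 7.84 and 8.59 in control and 7.70, 7.72 and 7.64 in c-myb h/h mice, 7.19-fold lower on average. In IgM+CD138+ cells it spread from 6.0 to 8.49, and its distance of -1.99 from the other arrays left it just inside the exclusion by level. Its CD23-positive arrays lay closer together than those of either other population.

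Row 19045 (listed ID 17343643) read 7.81 to 8.62 (median 8.30) in CD23-positive and 5.45 to 5.79 (median 5.61) in CD23-negative cells, a difference of -2.62. Its IgM+CD138+ arrays lay between 5.21 and 7.13. Row 11886 read 7.52 to 8.67, 5.0 to 6.39 and 4.01 to 6.25 in CD23-positive, CD23-negative and IgM+CD138+ cells, and is taken up with the genotypes. Rows 16540 and 16539 follow each other in the list and differed by -1.95 and -1.52. Of the rest, rows 24717, 32202 and 18344 lay low in IgM+CD138+ cells (medians 5.69, 5.82 and 5.27). Row 25149 (median 7.76) and row 18390 (median 7.47) lay at levels nearer to CD23-positive cells, whose medians were 8.05 and 7.10.

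**Figure D3:**
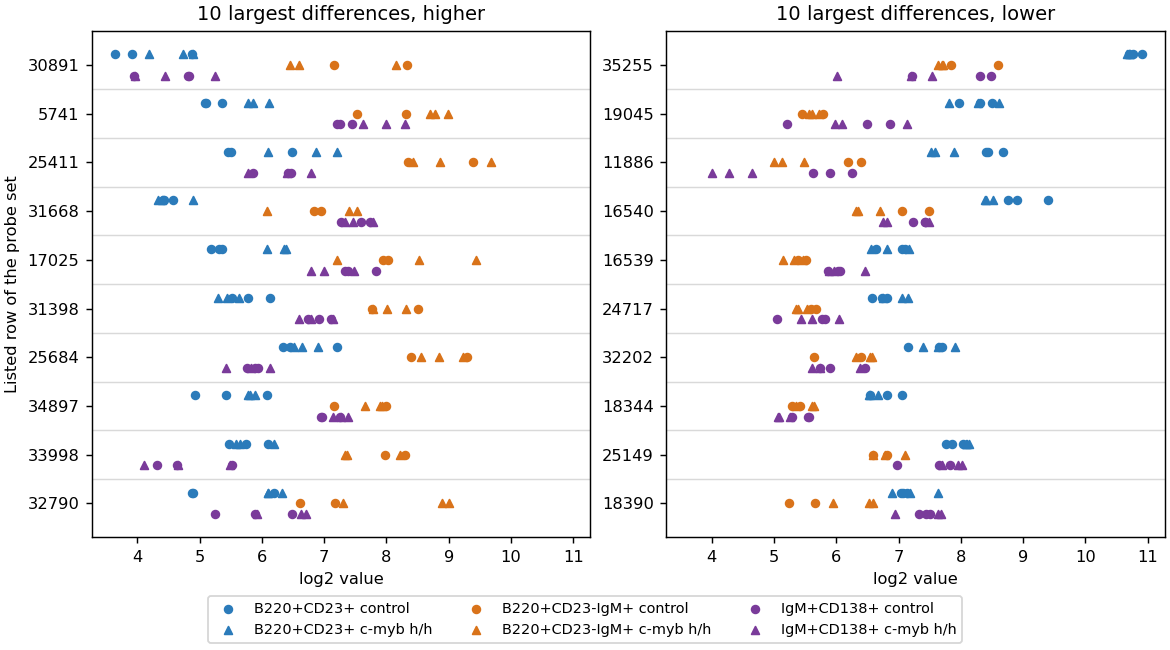
Log2 values in every array of the 10 higher (left) and 10 lower (right) members with the largest differences, coloured by population, circles for control and triangles for c-myb h/h mice. The blue and orange points do not overlap in any row, which was a condition for the choice, and the purple IgM+CD138+ points fall on either side among the higher members.

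IgM+CD138+ cells took different places among the higher members and mostly the CD23-negative place among the lower. In 35 higher members the IgM+CD138+ mean lay beyond the CD23-negative mean and in 32 between the populations but nearer to it. In 34 it was nearer to the CD23-positive mean and in 41 beyond that. The CD23-negative side thus held 67 of 142 (47.2%). Among the lower members it held 25 of 29 (86.2%), 17 beyond the CD23-negative mean and 8 nearer to it, with 2 nearer to and 2 beyond the CD23-positive mean. Over all valued rows, most of which hardly differ between the populations, that side held 57.2%.

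Counted by single arrays, the IgM+CD138+ range overlapped only the CD23-negative range in 42 higher members, only the CD23-positive range in 42 and both in 44. It lay above both in 6, below both in 7 and between them in 1. Among the lower members it overlapped only the CD23-negative range in 17, only the CD23-positive range in 1 and both in 5, lay below both in 5 and between them in 1 (row 16539). Rows 34310 and 31668 had the highest IgM+CD138+ means relative to the other 11 arrays among the higher members, by 1.97 and 1.91 log2, and rows 33998 and 22368 the lowest, by -1.94 and -1.92. Row 34310 read 6.13 to 8.23 in CD23-positive, 7.86 to 9.42 in CD23-negative and 9.30 to 10.28 in IgM+CD138+ cells, so the last were at the top. Row 22368 read 8.30 to 8.61 in CD23-positive, 9.44 to 9.85 in CD23-negative and 6.57 to 7.38 in IgM+CD138+ cells, 3 ranges with no overlap. Among the lower members row 6592 did so too, at 11.53 to 12.12, 10.44 to 11.32 and 8.69 to 10.05. Relative to the other 11 arrays it stood at -1.94 and row 35255 at -1.99, the lowest of the lower members, and rows 18390 and 18941 were the highest, at 0.79 and 0.52.

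The exclusion by level bounds these places at 2 log2 units. It had removed 21 rows in the higher direction, 18 with IgM+CD138+ cells high and 3 with them low, and 6 in the lower direction, 5 of them with IgM+CD138+ cells low.

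**Figure D4:**
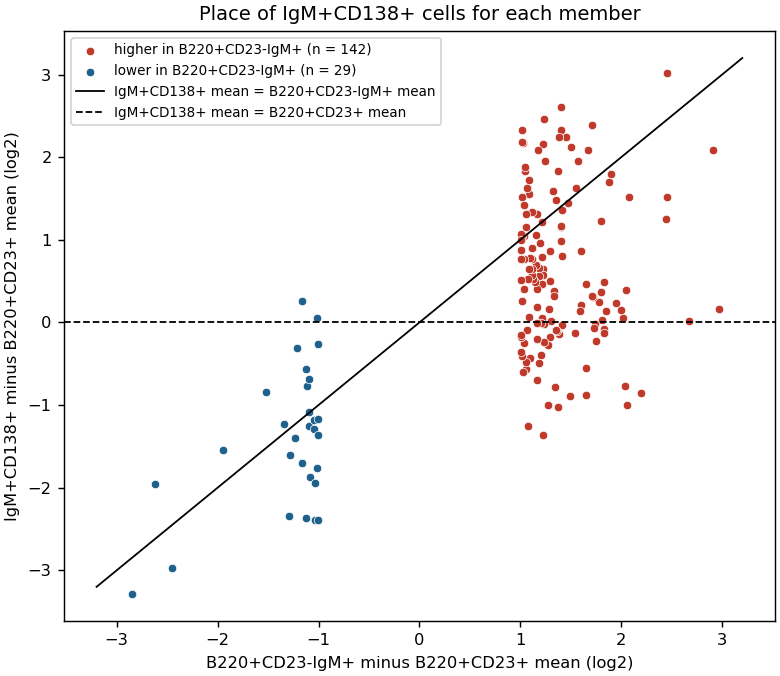
Each member by its CD23-negative minus CD23-positive mean (horizontal axis, log2) and its IgM+CD138+ minus CD23-positive mean (vertical axis, log2), red for the 142 higher and blue for the 29 lower members. Points on the diagonal have equal IgM+CD138+ and CD23-negative means and points on the dashed line equal IgM+CD138+ and CD23-positive means; red points spread to both sides of both lines, and blue points gather around and below the diagonal.

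Between genotypes, which the rule did not set against each other, the higher members leaned towards c-myb h/h mice in both B220+ populations. In CD23-positive cells 122 of 142 higher members had a higher mean in c-myb h/h than in control mice, with a median difference of 0.34 log2, against 47.4% of all rows and a median of -0.01. In CD23-negative cells 106 did so, with a median of 0.33, against 50.2% and 0.00. In IgM+CD138+ cells 80 did so, with a median of 0.07, against 49.9% and 0.00. The c-myb h/h arrays lay wholly above the control arrays in 51 higher members (35.9%) in CD23-positive cells, against 6.52% of all rows, and in 39 (27.5%) in CD23-negative cells, against 12.4%. They did so in 23 (16.2%) in IgM+CD138+ cells, against 5.29%. In 4 (2.82%), 2 (1.41%) and 9 (6.34%) they lay wholly below, in that order, against 7.72%, 12.2% and 5.21% of all rows.

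The lower members leaned the other way by less. Of 29, 20 had a lower mean among c-myb h/h than among control CD23-positive arrays, with a median difference of -0.11 log2. The numbers were 18 with -0.20 in CD23-negative and 19 with -0.11 in IgM+CD138+ cells. Of all 33327 rows, 17533, 16605 and 16713 had a lower mean in c-myb h/h mice in that order. The c-myb h/h arrays lay wholly below the control arrays in 12 of the 29 in CD23-positive cells, against 7.72% of all rows. They did so in 13 in CD23-negative cells, against 12.2%, and in 5 in IgM+CD138+ cells, against 5.21%. In 3, 3 and 2 of the 29 they lay wholly above, in that order, against 6.52%, 12.4% and 5.29% of all rows. For IgM+CD138+ cells this lean ended without control replicate 3, when 14 of 29 were lower and the median was 0.00, and without c-myb h/h replicate 1 it was 15 of 29.

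The lean of the higher members stayed in that direction with each array left out of the fit, its size changing. The 142 members were kept as chosen on all arrays. In CD23-positive cells 110 to 127 of 142 were higher in c-myb h/h mice and the median was 0.25 to 0.50 log2, lowest without control replicate 2 and highest without control replicate 1. In CD23-negative cells it was 89 to 116 and 0.16 to 0.47, lowest without control replicate 2, which leaves 1 control array, and highest without control replicate 1. The rule averages 5 CD23-negative arrays of which 3 are c-myb h/h, so a row that is high there in c-myb h/h mice enters the higher members more easily. In the same way, a row that is low there in c-myb h/h mice enters the lower members more easily. The lean in CD23-negative cells is thus not independent of the choice in either direction. The 6 CD23-positive arrays are balanced.

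Few single members passed the test across all rows. With limma and Benjamini-Hochberg adjustment over 33327 rows, 4 of 171 members, all higher ones, differed by genotype in CD23-positive cells. Over all rows 21 (0.063%) did so there. In CD23-negative cells 1 member did so, against 8 of all rows (0.024%), and in IgM+CD138+ cells 1, against 45 (0.135%). At an unadjusted limma p under 0.05 lay 55 of 171 members in CD23-positive cells (32.2%, against 4.82% of all rows), 51 in CD23-negative cells (29.8%, against 6.42%) and 25 in IgM+CD138+ cells (14.6%, against 9.82%). Those 25 were 14 of 142 higher members (9.86%) and 11 of 29 lower members (37.9%), and in 9 of these 11 the c-myb h/h mean was the lower one. The count of 4 fell to 0 when 1 array was left out, if that was control replicate 2 or 3 or any c-myb h/h replicate of the CD23-positive population, or replicate 2 of either genotype in IgM+CD138+ cells. It was 1 without replicate 1 or 3 of control or replicate 3 of c-myb h/h IgM+CD138+ cells, or without CD23-negative replicate 1 or 2 of c-myb h/h mice. Without IgM+CD138+ replicate 1 of c-myb h/h mice it was 2. The 1 in CD23-negative cells became 0 without control replicate 2 and 8 without c-myb h/h replicate 3, and the 1 in IgM+CD138+ cells became 3 and 2 without control replicates 1 and 2.

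**Figure D5:**
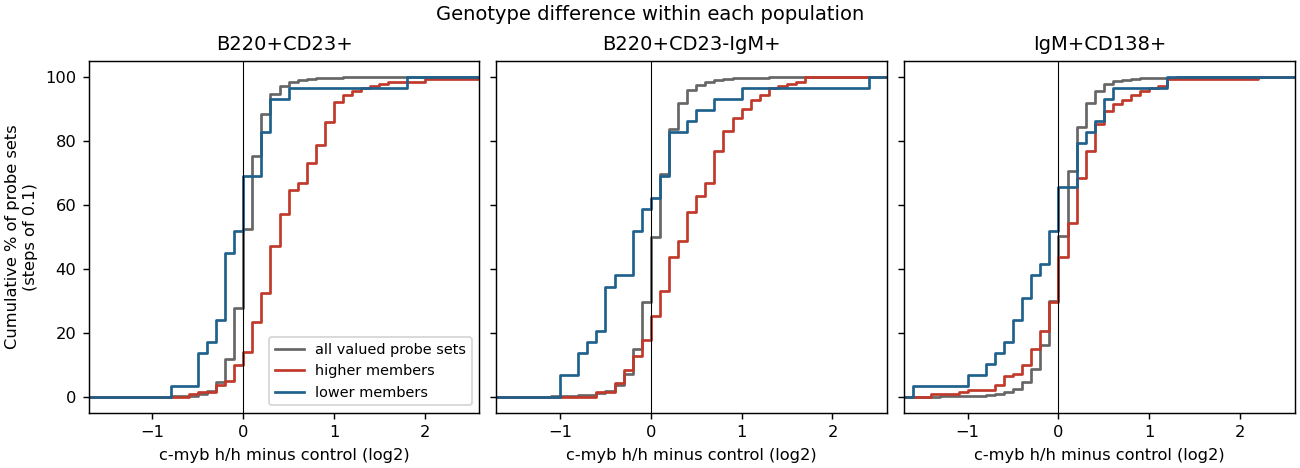
Cumulative share of probe sets (vertical axis, percent, in steps of 0.1 log2) by the genotype difference c-myb h/h minus control (horizontal axis, log2) in each population, for all 33327 valued rows (grey), the 142 higher members (red) and the 29 lower members (blue). The red curve lies to the right of the grey in the B220+ populations, with medians of 0.34 and 0.33, and close to it in IgM+CD138+ cells, with a median of 0.07.

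Row 11886, a lower member, was the called member of IgM+CD138+ cells. It read 5.63, 5.90 and 6.25 in control and 4.01, 4.28 and 4.65 in c-myb h/h replicates there. In CD23-positive cells it read 8.44, 8.41 and 8.67 in control and 7.59, 7.89 and 7.52 in c-myb h/h mice. In CD23-negative cells it read 6.19 and 6.39 against 5.47, 5.12 and 5.0. The genotypes did not overlap in any population, and the c-myb h/h arrays were the lower ones each time. The differences were -1.61 (SE 0.19) in IgM+CD138+ cells, -0.84 (SE 0.19) in the CD23-positive and -1.09 (SE 0.21) in the CD23-negative population, with limma adjusted p of 0.00359, 0.228 and 0.174. When the fit held no other population, its limma adjusted p was 0.347, and under each of the other 22 alternatives run the call held.

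Row 31501, a higher member, was called in both B220+ populations. In CD23-positive cells it read 4.44, 4.40 and 4.0 in control and 5.48, 5.14 and 5.48 in c-myb h/h mice. In CD23-negative cells it read 5.23 and 4.57 against 6.42, 6.38 and 6.80. In IgM+CD138+ cells all 6 arrays lay between 4.07 and 4.61. The population difference was 0.62 log2 for controls and 1.17 for c-myb h/h mice, and thus reached the threshold in the latter genotype alone. By the rule it was 1.06, over CD23-negative arrays of which 3 of 5 are c-myb h/h. Its choice as a member thus leaned on the genotype difference, and its call in CD23-negative cells is not independent of that choice. The genotype difference was 1.09 (SE 0.18, limma adjusted p = 0.0413) in the CD23-positive population and 1.63 (SE 0.20, limma adjusted p = 0.0112) in CD23-negative cells. Of 23 alternatives, 15 ended the first call (limma adjusted p up to 0.31) and 2 the second (up to 0.327).

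The other called members, rows 15434, 13659 and 20646, had their calls in the CD23-positive population, with c-myb h/h mice higher. Row 15434 read 6.02, 5.93 and 5.91 in control and 7.06, 6.71 and 6.94 in c-myb h/h mice, a difference of 0.95 (SE 0.15, limma adjusted p = 0.0348). Row 13659 read 7.30, 6.70 and 6.81 against 7.77, 8.14 and 8.06, a difference of 1.05 (SE 0.18, limma adjusted p = 0.0452). Row 20646 read 6.78, 6.16 and 6.29 against 7.40, 7.42 and 7.56, also 1.05 (SE 0.18, limma adjusted p = 0.0452). In each the arrays of the genotypes did not overlap, and in rows 13659 and 20646 control replicate 1 stood above the other controls. In CD23-negative cells their differences were 0.75, 0.47 and 0.68 and in IgM+CD138+ cells 0.33, 0.14 and 0.17, with no call. Of 23 alternatives 8, 16 and 16 ended their calls in that order (limma adjusted p up to 0.212, 0.362 and 0.362).

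An interaction term in limma set the genotype effects of the CD23-negative and CD23-positive populations against each other, and no member passed it. The limma count was 0 of 171 members and 0% of all rows after adjustment, and 9 members (5.26%, against 3.64% of all rows) at an unadjusted limma p under 0.05. The difference between these genotype effects had a median of -0.07 over the higher and -0.08 over the lower members, with no settled direction. For the higher members it ran from -0.29 without control CD23-negative replicate 2 to 0.13 without control CD23-negative replicate 1, and it was also above 0 without control CD23-positive replicate 2 (0.05) or 3 (0.01). For the lower members it ran from -0.22 without control CD23-negative replicate 1 to 0.03 without CD23-negative replicate 3 of c-myb h/h mice. In the 3 populations together 66 of 142 higher members (46.5%) had a higher mean in c-myb h/h mice each time, against 13.7% of all rows, and 12 of 29 lower members (41.4%) a lower mean each time, against 15.0%.

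Single replicates stood apart in many of the higher members at once. Control replicate 1 was the highest of the 3 control arrays of CD23-positive cells in 104 of 142 higher members (73.2%, against 30.6% of all rows), with a median of 0.40 log2 above the mean of the others. In CD23-negative cells control replicate 1 was above replicate 2 in 104 as well (73.2%, against 47.6%). Both held in 77 of the 142, against 17.5% of all rows. Whether they go together in the same members beyond their own counts was not tested. In CD23-positive cells control replicate 1 lay nearer to the c-myb h/h mean than to that of control replicates 2 and 3 in 85 (59.9%). This was close to the 54.1% of all rows.

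Among the c-myb h/h CD23-negative arrays, replicate 3 parted from the others. It lay at least 1 log2 below the mean of replicates 1 and 2 in 28 higher members and at least 1 above it in 12, together 28.2% of them, against 0.807% of all rows. In the 28, the medians were 7.53, 7.79 and 6.23 in c-myb h/h replicates 1, 2 and 3 and 6.56 and 6.77 in control replicates 1 and 2. In the 12 they were 6.48, 6.53 and 7.67, and 7.24 and 6.30. Control replicate 1 exceeded replicate 2 in 11 of the 28 and in all 12 of the 12, so the last set was high in control replicate 1 and c-myb h/h replicate 3 at once. These sets were picked on their values and are described only.

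The members that varied most within groups, rows 33967, 18941 and 7566, chosen after their values were seen, kept part of the order of the replicate numbers across populations. Row 33967 read 8.20, 4.41 and 2.95 in control replicates 1, 2 and 3 of CD23-positive cells and 7.81, 7.17 and 5.12 in those of IgM+CD138+ cells. It read 8.39 and 5.15 in control replicates 1 and 2 of CD23-negative cells. In c-myb h/h mice its 9 arrays lay between 6.83 and 9.45, a range that held control replicate 1 in each population and control replicate 2 in IgM+CD138+ cells. Row 18941, a lower member, read 4.69, 6.25 and 4.47 in control replicate 1 of CD23-positive, IgM+CD138+ and CD23-negative cells, the lowest of each population. It read 9.97, 10.10 and 8.70 in c-myb h/h replicate 2, the highest of each. Its difference between populations (-1.01) was smaller than the spread between mice, and it overlapped in all populations.

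Rows 7566 and 7567 are neighbours in the list, and their control arrays also differed widely. Row 7566 read 7.59, 3.83 and 4.61 in control and 7.29, 6.90 and 6.55 in c-myb h/h CD23-positive replicates, and row 7567 read 9.70, 6.95 and 7.70 against 10.87, 10.67 and 10.44. In CD23-negative cells row 7566 read 7.55 and 5.51 in control replicates 1 and 2 and 7.45 to 7.71 in c-myb h/h mice. In row 7567 these were 10.71 and 9.35 against 11.15 to 11.26. In both rows control replicate 1 was above the other controls in these populations. In row 7567 it was still below each c-myb h/h array of its population, and in row 7566 it was above those of CD23-positive cells. The genotype difference of row 7567 in CD23-positive cells, 2.54 log2, was the largest of any member there and did not pass (limma adjusted p = 0.13).

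The members were scattered along the list, with some direct neighbours. They lay from row 5615 to row 39939 and in 34 of the 36 windows of 1000 rows that hold valued rows, at most 9 in a window (rows 13001 to 14000). There were 10 pairs of adjacent rows that were both members: 7 pairs of higher members, 2 of lower members and 1 of opposite direction. As examples chosen after their values were seen, rows 20852 and 20853 differed by 1.82 and 1.83 log2, rows 18296 and 18297 by 1.95 and 1.54, and rows 24621 and 24622 by 1.55 and 1.12. Row 12196 was higher (1.12) and its neighbour 12197 lower (-1.08). Whether neighbours measure the same transcript cannot be read from displaced IDs.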

How the data were processed

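Each sample was biotin-labelled total RNA on an array of its own, according to the protocols in the labels. The authors deposited log2 expression values; the tool named is RMA, with no version, per the submitters' processing notes, which do not say which arrays were normalized jointly. Of 41801 listed rows, 8474 were blank in every array and 33327 held values in all 17.

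The members, the rule and the tests were chosen with earlier results of these data known. Genotype differences were tested with R 4.3.3 and limma 3.58.1 (moderated 2-sided test, 6 group means, 11 residual degrees of freedom), adjusted by Benjamini-Hochberg over all 33327 rows and called under 0.05. No filter on dim rows was used, so that every member was tested; 136 of 142 higher and all 29 lower members pass a filter at the 50th percentile in 2 arrays, which is an alternative. The fit pools the spread of all groups. The number of arrays limits the precision. Replicates of a group are separate mice by the design text.

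Named members are the 10 largest differences in each direction with separate arrays, those called by genotype, the 2 nearest the threshold on each side, and the 2 highest and 2 lowest in IgM+CD138+ cells in each direction. On simulated data with known changes, the same limma step was tested first. Figures were drawn with matplotlib 3.10.9.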

Additional observations from a re-analysis of the deposited data

How the results depend on the processing

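Leaving out each B220+CD23+ or B220+CD23-IgM+ array in turn gave 109 to 184 higher members (142 in full) and 21 to 36 lower members (29). Under each of these, 84 and 13 were members. IgM+CD138+ arrays were not left out for this choice of members, so how members near the exclusion by level depend on them was not tested. Leaving out arrays gave 0 to 5 members called by genotype in B220+CD23+ cells (4), 0 to 8 in B220+CD23-IgM+ cells (1), 1 to 3 in IgM+CD138+ cells (1) and 0 to 0 for the difference of the genotype effects (0). With the mouse as a random block, 4 members were called in B220+CD23+, 1 in B220+CD23-IgM+ and 1 in IgM+CD138+ cells. For the difference of the genotype effects 0 were called. With the replicate block, the number as an additive term, 1 member was called in B220+CD23+ cells. The replicate numbers were not taken as pairs between genotypes: deviations of same-numbered arrays correlated at 0.228, 0.0596 and 0.0485 in B220+CD23+ cells. The values were similar between populations, for arrays of the same genotype and number that were read as the same mouse. They were 0.269 and 0.185 in control and 0.109, 0.0581 and 0.0245 in c-myb h/h mice, so they do not bear out that reading either. Choosing members by the mean of the 5 pairs of the same genotype and number gave 118 higher and 25 lower. That mean equals the rule's difference without control CD23-positive replicate 3, so the pairing itself adds nothing to it. With only the compared groups in the fit, 0 members were called in B220+CD23-IgM+ and 0 in IgM+CD138+ cells, and with trend and robust moderation 2 in IgM+CD138+ cells. Why these counts moved was not tested. Of 340 recomputed differences of the 20 largest members, 337 moved by no more than an SD of that row, and none changed sign. The SD was the larger of those over the CD23-positive and over the CD23-negative arrays, both genotypes included. Most of the 340 could not pass that limit. Leaving out 1 array always moves a group mean by less than its SD, and not applying the exclusion leaves the difference unchanged. The others were row 24717 with control arrays only (-1.07) and c-myb h/h arrays only (-1.56) and row 18344 with control arrays only (-1.45). Of 138 recomputed genotype differences of called members, 58 lost the call and none changed sign.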
